A study of Mus musculus with 13 samples.

Results

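The genes encoding respiratory complex I and its assembly factors were followed in ventricular muscle of mice after myocardial infarction (MI), with and without an antibody against connective tissue growth factor. They were taken as the gene entries of the deposited count table whose symbol begins with Nduf, with pseudogenes left out. The table held 44 such genes of 35793, of which 0 were pseudogenes, and all 44 passed the filter on low counts. They comprised 7 core subunits, 29 accessory subunits, 6 assembly factors of the Ndufaf series and 2 relatives that are not complex I subunits, Ndufa4 and Ndufa4l2. Ndufb1, Ndufaf7 and the mitochondrially encoded subunits were not analysed here. RNA was taken from left ventricle outside the ischaemic zone of C57BL/6JO1aHsd mice that were 8 to 10 weeks old when treatment began. In 5 libraries the left anterior descending artery (LAD) had been permanently ligated and the mice had received FG-3149, a mouse monoclonal antibody against CTGF, at 10 mg/kg. In another 5 the LAD had been ligated and the mice had received a control antibody labelled as mouse anti IgG at 10 mg/kg. In the remaining 3 the mice had undergone sham surgery with no antibody, so the groups with and without infarction also differ in whether an antibody was given. The time point is labelled 1W+6W for all 13 libraries, which the labels do not spell out.

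Complex I (NADH:ubiquinone oxidoreductase) is the entry point of electrons from NADH into the respiratory chain. Its peripheral arm, which reaches into the mitochondrial matrix, carries electrons from NADH over a flavin and a chain of iron-sulfur clusters to ubiquinone, and its membrane arm pumps protons across the inner membrane. Core subunits carry out catalysis and are shared with bacteria, accessory subunits surround and stabilise them, and assembly factors join the modules and then leave. Cardiac muscle is rich in mitochondria and depends on this chain for most of its ATP.

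Library totals were 10954922 to 12794823 estimated counts with FG-3149, 13084735 to 17567238 with IgG and 12025880 to 14999813 in sham. Levels below are in CPM (reads of a gene relative to the library's TMM-adjusted total), and means are given ± SD. A gene is called where its p in edgeR's quasi-likelihood test, adjusted by Benjamini and Hochberg over 13434 genes, is under 0.05. The labels do not say outright that each library came from its own animal, so the p-values measure the spread between these libraries. Libraries also differed in how far reads reached the 5′ end of transcripts. Over 5442 genes with a single transcript, the median share of a gene's reads in its 5′-most exon was 1.87%, 2.26%, 2.16%, 2.20% and 2.14% with FG-3149, 0.782%, 0.771%, 0.990%, 1.28% and 0.973% with IgG, and 0.672%, 0.624% and 0.740% in sham. The FG-3149 libraries lay above all others (difference from IgG 1.17 percentage points, exact permutation p = 0.0079; from sham 1.45, exact permutation p = 0.0179, both 2-sided and the smallest possible). The IgG libraries in turn all lay above the sham libraries, by 0.28 percentage points (exact permutation p = 0.0357, 2-sided). The median share in the 3′-most exon of the same genes was 41.0% to 42.8% with FG-3149, 42.5% to 44.4% with IgG and 45.5% to 46.3% in sham. All infarcted libraries lay below all sham libraries in this share, and the antibody groups overlapped. In each of the 3 comparisons coverage and the groups therefore cannot be told apart. Counts restricted to some exons are given beside the results further on. Among the FG-3149 libraries, replicate 3 was highest in 40 of the 44 genes, and among the IgG libraries replicate 2 was lowest in 25.

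Levels per length differed widely between subunits. Group means over the 36 subunits ran from 104.7 to 1097 RPKM with FG-3149, from 101.4 to 1064 RPKM with IgG and from 106.1 to 1212 RPKM in sham, so the highest and the lowest differed 10.5-fold, 10.5-fold and 11.4-fold. Ndufb8, of the distal membrane arm, was the highest and Ndufa11, a membrane subunit of the proximal arm, the lowest in all 3 groups. RPKM depends on annotated length, and 2264 of the 2661 annotated bases of Ndufa11 lie in exon 4. In sham replicate 1 that exon held 1221 reads, against 1190 in exon 3 of 123 bases. In CPM, which is not divided by length, Ndufa11 had 282.8 in sham, above Ndufs5 at 122.4. The Ndufaf factors, which act only while the complex is built, were far lower at 9.01 to 43.3 RPKM with FG-3149, 9.16 to 40.6 RPKM with IgG and 10.5 to 44.6 RPKM in sham. Ndufaf1 was the highest of them and Ndufaf5 the lowest in each group, an order that also rests on annotated length. In CPM, Ndufaf6 was the lowest at 15.7 with FG-3149, 12.9 with IgG and 15.1 in sham. On that scale Ndufaf4, at 92.1 in sham, exceeded Ndufaf1 at 64.8. Ndufa4, now assigned to complex IV, exceeded every subunit at 1751 ± 98.2 RPKM with FG-3149, 1706 ± 76.7 RPKM with IgG and 2080 ± 16.9 RPKM in sham (SD, n = 5, 5 and 3).

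In infarcted hearts given IgG, complex I genes were lower than in sham hearts, by a small amount and across all structural groups. The fitted log2 fold change was below 0 for all 44 genes, as it was for 50.2% of all genes tested, and its median over the 44 was -0.22 against -0.001 over all genes. Of the 44, 26 were called lower, where 15.9% of all genes were, and 0 were called higher, where 17.8% of all genes were. Counts of 0 higher were also obtained with DESeq2 and with limma voom, and at an unadjusted p since no fold change was above 0. In 32 of the 44 all 5 IgG libraries lay below all 3 sham libraries, which held for 17.7% of all genes.

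In infarcted hearts given FG-3149, compared with the same sham libraries, fewer complex I genes were called. The median log2 fold change of the 44 was -0.12 against -0.001 over all genes, with 32 genes below 0, as were 50.2% of all genes. There were 15 genes called lower, against 13.9% of all genes, and 1 called higher, against 15.6% of all genes. The 15 became 9 without sham replicate 2, sham replicate 3 or FG-3149 replicate 2, and the 1 became 2 without sham replicate 3, IgG replicate 3 or FG-3149 replicate 2. With a trend by transcript length removed, 25 were lower. Both comparisons use the sham libraries, and a call in 1 of them only is no test of a difference between the antibodies, which is given further on.

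**Figure D1:**
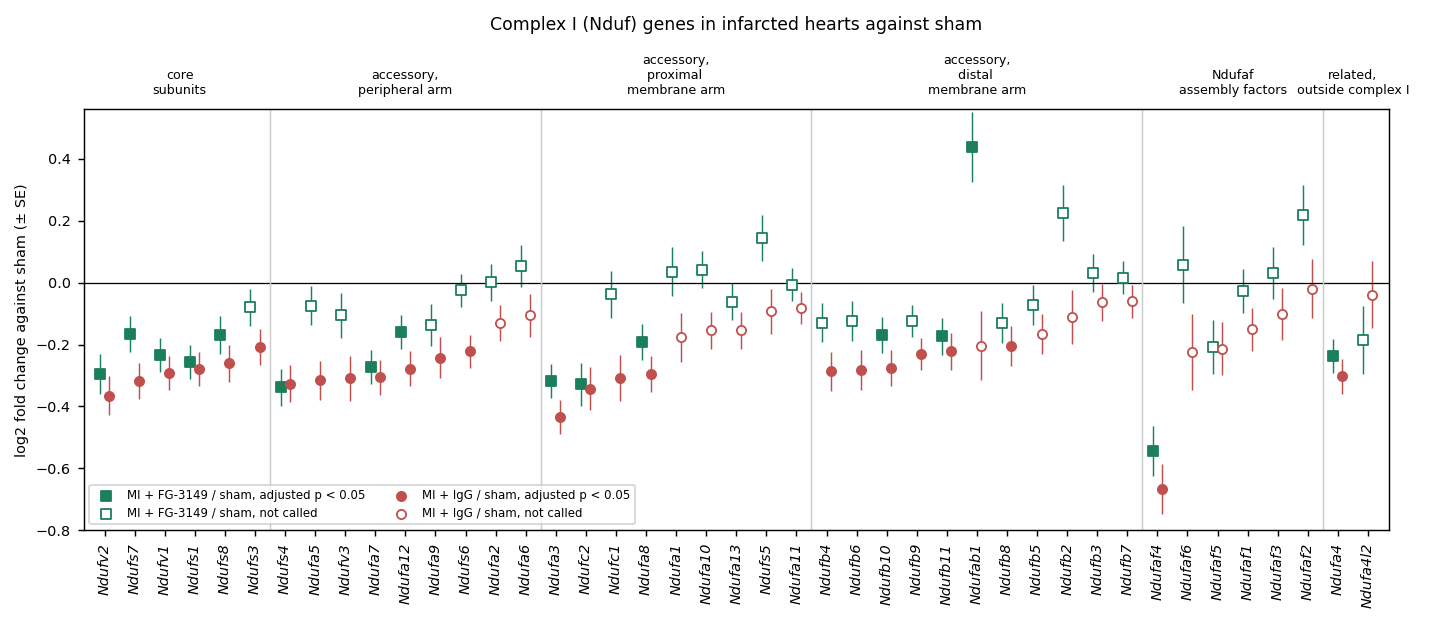
Log2 fold change against sham (y axis, ± SE) of 43 of the 44 Nduf genes (x axis, grouped by role and ordered by the IgG value), for MI with FG-3149 (n = 5, squares) and MI with IgG (n = 5, circles), each against sham (n = 3). Filled symbols passed an adjusted p of 0.05. All 43 circles lie below 0, and Ndufab1 is the single filled square above 0.

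Of the 7 core subunits, 5 were called lower with FG-3149 (median log2 -0.17) and all 7 with IgG (median -0.28). Ndufv2, which carries an iron-sulfur cluster beside the NADH-binding subunit, had 562.7, 536.5, 590.0, 533.6 and 488.5 CPM with FG-3149, against 561.5, 505.1, 549.9, 488.0 and 478.1 CPM with IgG and 658.6, 688.9 and 647.7 CPM in sham. Every infarcted library lay below every sham library, and the FG-3149 and IgG libraries overlapped. The log2 fold change against sham was -0.30 ± 0.06 with FG-3149 (SE, edgeR adjusted p = 0.00238) and -0.37 ± 0.06 with IgG (SE, edgeR adjusted p = 0.000288). Ndufs1, the largest iron-sulfur subunit, had 1069, 1011, 1032, 1025 and 1044 CPM with FG-3149, against 1112, 953.2, 1073, 950.0 and 1008 CPM with IgG and 1223, 1260 and 1230 CPM in sham. Here too both infarcted groups lay wholly below sham and overlapped each other, with log2 fold changes against sham of -0.26 with FG-3149 and -0.28 with IgG. Ndufv1, which binds NADH and the flavin, had log2 fold changes against sham of -0.23 with FG-3149 and -0.29 with IgG.

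Ndufs7 takes part in the ubiquinone-binding site, and Ndufs3 and Ndufs8 sit beside it in the peripheral arm. Ndufs7 had 352.9, 325.3, 394.9, 366.8 and 348.8 CPM with FG-3149, against 336.4, 299.4, 326.1, 327.8 and 321.3 CPM with IgG and 399.8, 392.1 and 413.0 CPM in sham. The IgG libraries were well clear of sham, whereas FG-3149 replicate 3 came within the range of sham replicates 1 and 2. Its log2 fold change against sham was -0.17 ± 0.06 with FG-3149 (SE, edgeR adjusted p = 0.038) and -0.32 ± 0.06 with IgG (SE, edgeR adjusted p = 0.000393). Ndufs8 was called lower in both (-0.17 with FG-3149, edgeR adjusted p = 0.0453, and -0.26 with IgG). Over 29 alternatives the FG-3149 call was lost in 10 for Ndufs7, with adjusted p between 0.000945 and 0.152, and in 17 for Ndufs8, with adjusted p between 0.00154 and 0.369. Ndufs3 had -0.08 with FG-3149, which did not pass, and was called lower with IgG, at -0.21.

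**Figure D2:**
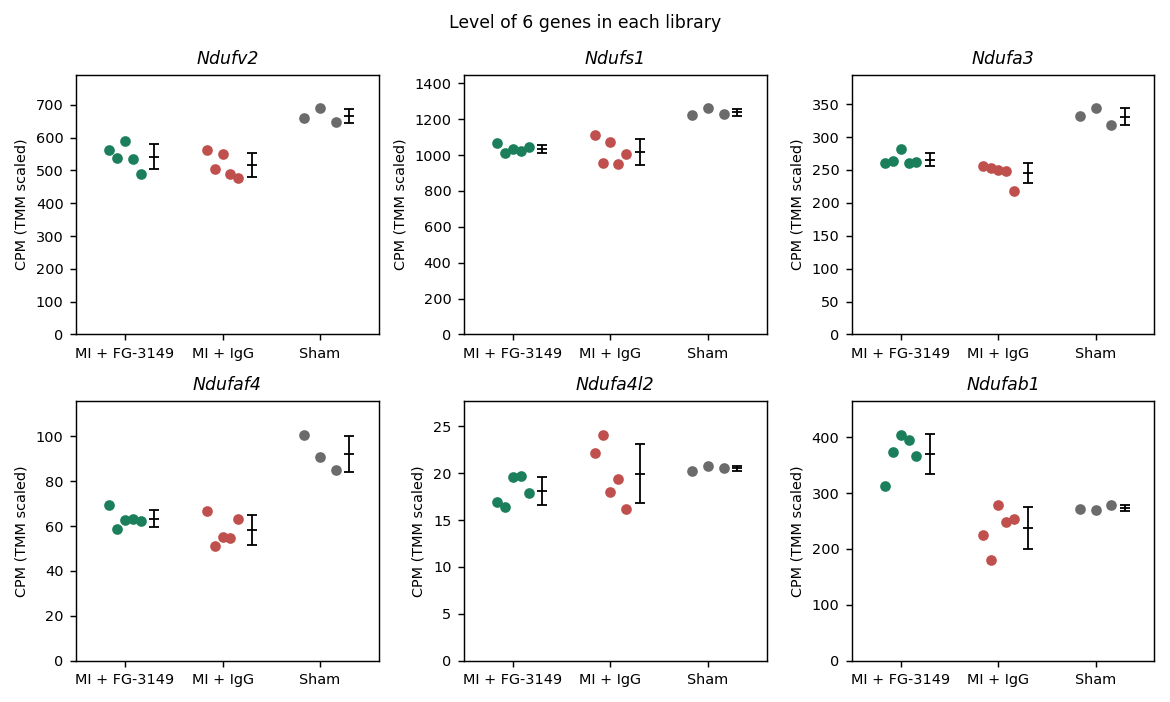
Level in CPM with TMM factors (y axis, starting at 0) of 6 genes in each library (points) for MI with FG-3149 (n = 5), MI with IgG (n = 5) and sham (n = 3), with bars for mean ± SD. Ndufv2, Ndufs1, Ndufa3 and Ndufaf4 lie below sham in all 10 infarcted libraries, the IgG libraries of Ndufa4l2 lie on both sides of sham, and Ndufab1 is highest with FG-3149.

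Of the 9 accessory subunits of the peripheral arm, 3 were lower with FG-3149 (median log2 -0.11) and 7 with IgG (median -0.28). Ndufs4, a late-joining subunit whose loss causes Leigh syndrome in humans, had 234.8, 218.7, 252.2, 231.3 and 222.9 CPM with FG-3149, against 255.6, 221.6, 246.7, 216.6 and 228.1 CPM with IgG and 296.1, 295.7 and 287.8 CPM in sham. Both infarcted groups covered the same range, below all sham libraries, and the log2 fold change was -0.34 ± 0.06 with FG-3149 (SE, edgeR adjusted p = 0.000463) and -0.33 ± 0.06 with IgG (SE, edgeR adjusted p = 0.000407). Ndufa7 (-0.27 with FG-3149 and -0.31 with IgG) and Ndufa12 (-0.16 with FG-3149 and -0.28 with IgG), which replaces the assembly factor Ndufaf2 in the finished complex, were the other members called in both. Ndufa5, a subunit of the ubiquinone module, had -0.07 with FG-3149, which did not pass, and -0.32 with IgG (edgeR adjusted p = 0.00081). Ndufa2 and Ndufa6 had the highest values of this group with IgG, at -0.13 and -0.11, and were not called in either comparison. Ndufa6 belongs to the LYR proteins, which hold the acyl carrier protein Ndufab1 to the complex.

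In Ndufv3, a flavoprotein-module subunit with a short and a long form, transcript shares were nearly constant. The transcript shares of the deposited count table gave the short form 87.7% to 90.7% of the gene with FG-3149, 87.6% to 88.5% with IgG and 89.4% to 90.5% in sham. For Ndufs1 the main transcript held 54.2% to 60% with FG-3149, 60.5% to 65.4% with IgG and 66.5% to 69.7% in sham, so the 3 groups did not overlap. Its other listed transcripts took up the rest, and as transcript shares rest on exon coverage, the part of the 5′ coverage in this order was not tested.

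The 9 accessory subunits of the proximal membrane arm were split, with 3 lower in the FG-3149 comparison (median log2 -0.04) and 4 in the IgG comparison (median -0.18). Ndufa3, a small membrane-spanning subunit, had the strongest fall of all 36 subunits with IgG. It had 260.3, 263.9, 282.3, 260.3 and 261.9 CPM with FG-3149, against 255.6, 252.7, 250.6, 248.2 and 218.7 CPM with IgG and 332.3, 343.5 and 317.7 CPM in sham. All FG-3149 libraries lay above all IgG libraries and below all sham libraries, with log2 fold changes against sham of -0.32 ± 0.06 with FG-3149 (SE, edgeR adjusted p = 0.000394) and -0.43 ± 0.06 with IgG (SE, edgeR adjusted p = 1.28e-05). The smaller fall with FG-3149 was not kept on the 3′-most exon alone, given further on. Ndufc2, which joins the membrane arm early in assembly, was called in both at -0.33 with FG-3149 and -0.34 with IgG. Ndufs5, of the intermembrane space side, had 0.14 with FG-3149 and -0.09 with IgG, and Ndufa11 had -0.01 with FG-3149 and -0.08 with IgG, with none of these values passing.

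Of the 11 accessory subunits of the distal membrane arm, 2 were lower and 1 was higher with FG-3149 (median log2 -0.12), and 6 were lower with IgG (median -0.20). Ndufb4 and Ndufb6 had the lowest values with IgG, at -0.29 and -0.28. Ndufb4 had 242.8, 235.0, 263.2, 261.8 and 233.6 CPM with FG-3149, against 223.5, 198.6, 246.1, 219.1 and 221.0 CPM with IgG and 263.8, 272.9 and 274.6 CPM in sham. Sham was above all infarcted libraries, although by less than 1 CPM over FG-3149 replicate 3, and the FG-3149 values of -0.13 for Ndufb4 and -0.12 for Ndufb6 did not pass. Counted without the 5′-most exon, both were called lower with FG-3149, at -0.284 (edgeR adjusted p = 0.0036) and -0.335 (edgeR adjusted p = 0.00255). On the 3′-most exon alone they were also called lower, at -0.389 (edgeR adjusted p = 0.000934) and -0.393 (edgeR adjusted p = 0.00158). Ndufb10 and Ndufb11 were called lower in both comparisons. Ndufb7 (0.02 with FG-3149 and -0.06 with IgG) and Ndufb3 (0.03 with FG-3149 and -0.06 with IgG) had the highest IgG values of the group and were not called.

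Among the assembly factors, Ndufaf4 stood out. Ndufaf4 works with Ndufaf3 in building the ubiquinone module, and the gene lies at chr4:24898083-24905001 (mm10, plus strand). It had 69.2, 58.9, 62.5, 63.2 and 62.5 CPM with FG-3149, against 66.9, 51.0, 55.2, 54.5 and 63.3 CPM with IgG and 100.7, 90.7 and 85.0 CPM in sham. Every infarcted library was well below every sham library, and the antibody groups overlapped. The log2 fold change was -0.54 ± 0.08 with FG-3149 (SE, edgeR adjusted p = 0.000107) and -0.67 ± 0.08 with IgG (SE, edgeR adjusted p = 8.36e-06), the largest of all 44 genes in both comparisons. Its partner Ndufaf3 had 0.03 with FG-3149 and -0.10 with IgG, and Ndufaf1, an early factor of the membrane arm, had -0.03 with FG-3149 and -0.15 with IgG. Ndufaf2 (0.22 with FG-3149 and -0.02 with IgG), Ndufaf5 (-0.21 in both), which hydroxylates Ndufs7, and Ndufaf6 (0.06 with FG-3149 and -0.22 with IgG) were likewise not called, as were Ndufaf1 and Ndufaf3.

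The promoter of Ndufaf4 was read for motifs together with those of the other Nduf genes, of which 38 of 44 were matched in a RefSeq table of GRCm38.p6 promoters. Nuclear respiratory factor 1 (NRF1), a transcription factor known for binding promoters of respiratory chain genes, recognises a palindrome around the letters GCATGCGC. On either strand, these letters were in 4 of the 38 promoters (10.5%), those of Ndufa11, Ndufa6, Ndufa8 and Ndufaf4, and in 626 of all 27025 promoters (2.32%). The letters CCGGAAG of ETS factors were in 10.5% and 7.05%, AAGGTCA of oestrogen-related receptors in 7.89% and 4.05%, and AAGATGG of YY1 in 0 of 38 and 4.53%. The 250 bases before the start of Ndufaf4, which fell most, and of Ndufa11, which was not called, are shown 5′ to 3′ with the NRF1 letters of both strands in capitals. They lie at chr4:24897833-24898082 (plus strand) and chr17:56717512-56717761 (plus strand).
Ndufaf4: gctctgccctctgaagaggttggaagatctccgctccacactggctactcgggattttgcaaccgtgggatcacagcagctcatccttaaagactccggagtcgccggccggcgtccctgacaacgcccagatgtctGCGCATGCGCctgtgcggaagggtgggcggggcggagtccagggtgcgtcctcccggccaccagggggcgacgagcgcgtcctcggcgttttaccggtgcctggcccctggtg
Ndufa11: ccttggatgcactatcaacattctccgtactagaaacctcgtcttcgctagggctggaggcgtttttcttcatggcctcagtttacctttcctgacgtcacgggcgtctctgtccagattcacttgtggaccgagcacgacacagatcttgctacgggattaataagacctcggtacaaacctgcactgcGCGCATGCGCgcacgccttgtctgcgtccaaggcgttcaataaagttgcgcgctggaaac
Both promoters hold the letters on both strands at a single palindrome, 113 bases before the start in Ndufaf4 and 60 in Ndufa11. The letters thus stood in promoters of genes with the largest and with a small fold change, and a match in the letters does not show that a factor was bound.

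The relatives outside complex I differed from each other. Ndufa4 had 854.6, 867.3, 947.6, 880.0 and 802.4 CPM with FG-3149, against 858.9, 779.3, 883.0, 809.6 and 825.5 CPM with IgG and 1019, 1046 and 1011 CPM in sham. Both infarcted groups were below all sham libraries, with log2 fold changes of -0.24 (edgeR adjusted p = 0.0043) with FG-3149 and -0.30 (edgeR adjusted p = 0.000456) with IgG. Ndufa4l2, its paralogue that is induced by hypoxia, had 16.9, 16.4, 19.6, 19.7 and 17.9 CPM with FG-3149, against 22.14, 24.1, 18.01, 19.33 and 16.2 CPM with IgG and 20.3, 20.8 and 20.6 CPM in sham. The FG-3149 libraries were all below sham, the IgG libraries lay on both sides of it, and neither value passed (-0.19 ± 0.11 with FG-3149 and -0.04 ± 0.11 with IgG, SE; edgeR adjusted p = 0.22 and 0.813). Ndufa4l2 shares 34 bases with Shmt2 on the other strand, and whether counting used the strand is not given in the sources used here.

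Summed over the 36 subunits, the level was 13380 to 15280 CPM with FG-3149, 12350 to 13840 CPM with IgG and 15060 to 15490 CPM in sham. The 10 cardiomyocyte markers examined, all detected, summed to 89070 to 97330 CPM with FG-3149, 85130 to 93040 CPM with IgG and 94900 to 104300 CPM in sham. Of these, Myh6, Tnni3, Myl2 and Ryr2 were called lower in both infarcted groups and the other 6 were not called, with a median log2 of 0.01 with FG-3149 and -0.09 with IgG. The 8 fibroblast markers, all detected, summed to 2007 to 2472 CPM with FG-3149, 2471 to 3890 CPM with IgG and 1234 to 1308 CPM in sham, with 7 called higher in each infarcted group. The 6 macrophage markers analysed, all detected, summed to 412.2 to 679.3 CPM with FG-3149, 391.6 to 589.0 CPM with IgG and 290.3 to 301.0 CPM in sham, with 6 called higher with FG-3149 and 5 with IgG. Adgre1, also chosen as a macrophage marker, was not among those analysed. The 6 endothelial markers, all detected, summed to 967.0 to 1064 CPM with FG-3149, 896.7 to 1188 CPM with IgG and 1173 to 1293 CPM in sham, with 4 called lower with FG-3149 and 2 with IgG, and Kdr, the VEGF receptor, had -0.55 with FG-3149 and -0.59 with IgG. The 5 smooth muscle and pericyte markers, all detected, summed to 381.7 to 455.8 CPM with FG-3149, 352.5 to 478.0 CPM with IgG and 458.9 to 470.2 CPM in sham, and the calls among them were 2 higher with IgG. Single libraries stood apart in markers of atrium and fat. Of 3 atrial markers only Myl4 passed the filter, at 21.5 CPM in IgG replicate 4 and 30.7 CPM in IgG replicate 5, where the other libraries had 1.22 to 3.40 CPM. Of 4 adipocyte markers Cidec and Cfd passed, and summed to 33.4 CPM in FG-3149 replicate 3 and 39.2 CPM in IgG replicate 5, where the others had 0 to 4.48 CPM. The part of all these cells in the complex I levels was not tested, and in RNA from whole tissue fewer cells of a type and less RNA per cell cannot be told apart.

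Other mitochondrial gene lists had medians below 0 to differing degrees, and subunits of the other respiratory complexes were called lower the most often. Over all genes, 13.9% were called lower and 15.6% higher with FG-3149, and 15.9% lower and 17.8% higher with IgG. Of 11 further complex I assembly factors, 3 were lower with FG-3149 (median log2 -0.11) and 4 with IgG (median -0.13). Called in both were Ecsit, a partner of Ndufaf1 (-0.30 with FG-3149 and -0.33 with IgG), Tmem126a (-0.31 with FG-3149 and -0.42 with IgG), and Aifm1, which acts in the import of intermembrane space proteins (-0.22 with FG-3149 and -0.25 with IgG). Of 39 nuclear-encoded subunits of complexes II to V, 24 were lower and 1 was higher with FG-3149 (median -0.21), and 34 were lower with IgG (median -0.30). Sdha, the flavoprotein of complex II, had -0.39 with FG-3149 (edgeR adjusted p = 8.72e-05) and -0.44 with IgG (edgeR adjusted p = 1.38e-05). Cox7a1, the muscle form of a complex IV subunit, had -0.37 with FG-3149 (edgeR adjusted p = 0.000891) and -0.51 with IgG (edgeR adjusted p = 3.08e-05). Of 20 mitochondrial import, chaperone and outer membrane genes, 4 were lower and 2 higher with FG-3149 (median -0.05), and 8 were lower with IgG (median -0.14). The fold change of this list was above 0 in 8 genes with FG-3149 and in 5 with IgG. Of these Vdac3, an outer membrane channel, had -0.29 with FG-3149 and -0.32 with IgG, while Tomm40, the pore of the outer membrane import complex, was called higher at 0.31 with FG-3149 and had 0.12 with IgG. Of 10 regulators of mitochondrial genes, 3 were lower with FG-3149 and 4 with IgG. Ppargc1a, the coactivator PGC-1α, was called lower in both, at -0.35 with FG-3149 and -0.39 with IgG. Tfam, which packages mitochondrial DNA, had 0.06 with FG-3149 and -0.03 with IgG and was not called.

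The comparison of FG-3149 with IgG asks whether blocking CTGF changed gene expression in infarcted hearts. Complex I genes were slightly higher with FG-3149, with 42 of 44 fold changes above 0, as were 45.9% of all genes, and a median log2 of 0.11 against -0.01 over all genes. Ndufab1, Ndufa5, Ndufb2 and Ndufs6 were called higher, 4 of 44, where 0.916% of all genes were. There were 0 called lower, where 0.156% of all genes were, also with DESeq2 and limma voom, and the 2 genes below 0 had unadjusted p of 0.144 (Ndufa4l2) and 0.838 (Ndufs4). All FG-3149 libraries lay above all IgG libraries in 6 of the 44, which held for 1.9% of all genes. Without FG-3149 replicate 3 the median was 0.08 and only Ndufab1 was called. The number called was 1 or 2 without any 1 of sham replicates 1, 2 and 3, IgG replicates 2, 4 and 5 and FG-3149 replicates 3, 4 and 5. It was 7 with DESeq2 and 1 when a trend with transcript length or with GC content was removed.

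Ndufab1, the mitochondrial acyl carrier protein, carries growing chains in mitochondrial fatty acid synthesis and is also a complex I subunit. It had 313.0, 373.1, 404.4, 394.9 and 365.6 CPM with FG-3149, against 225.3, 180.1, 279.3, 247.6 and 253.5 CPM with IgG and 270.7, 270.0 and 278.6 CPM in sham. All FG-3149 libraries were above every other library, while IgG and sham overlapped. Its log2 fold change was 0.64 ± 0.10 against IgG (SE, edgeR adjusted p = 0.00534) and 0.44 ± 0.11 against sham (SE, edgeR adjusted p = 0.0106), the largest increase of the 44 in each comparison. The IgG value against sham was -0.20 ± 0.11 (SE, edgeR adjusted p = 0.18).

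The reads of Ndufab1 were not spread alike over its 5 exons. Exon 1 held 65.7, 102.0, 102.3, 103.2 and 94.2 CPM (here without TMM factors) with FG-3149, against 13.7, 12.6, 41.8, 37.9 and 33.5 with IgG and 17.3, 10.0 and 23.8 in sham. Exon 2 held 97.0, 124.2, 122.9, 130.8 and 118.2 with FG-3149. The exon 2 values were 57.8, 54.2, 83.4, 75.6 and 72.5 with IgG and 73.0, 69.0 and 72.2 in sham. In exon 3 the values were 89.5, 95.2, 98.0, 92.1 and 88.1 with FG-3149, against 86.1, 68.7, 87.6, 82.0 and 80.5 with IgG and 100.5, 105.6 and 101.0 in sham. In exon 4 they were 54.3, 57.2, 65.2, 58.1 and 55.3 with FG-3149, against 65.4, 43.7, 61.6, 56.4 and 61.8 with IgG and 76.7, 76.2 and 77.1 in sham. The FG-3149 libraries were therefore far above the others in exon 1 and also above all others in exon 2. They were above IgG but below sham in exon 3, and below sham and mixed with IgG in exon 4. The 5′-most exon held 25.4% of the gene's reads with FG-3149, 11.2% with IgG and 6.21% in sham.

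The coding part of exon 1 is shown 5′ to 3′ because the FG-3149 libraries lay furthest above the others there. They lay above all others in exon 2 as well. The coding part of exon 1 is 168 bases at chr7:122101655-122101822 (GRCm38, minus strand, GENCODE annotation).
Ndufab1 exon 1, coding part: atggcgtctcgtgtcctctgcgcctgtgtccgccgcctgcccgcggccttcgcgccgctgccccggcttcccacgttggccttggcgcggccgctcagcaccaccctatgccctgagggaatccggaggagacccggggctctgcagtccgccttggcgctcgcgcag
Of these bases 73.2% are G or C, against 48.0%, 40.9% and 33.7% in the coding parts of exons 2, 3 and 4. The part of base composition in the exon pattern was not tested.

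**Figure D3:**
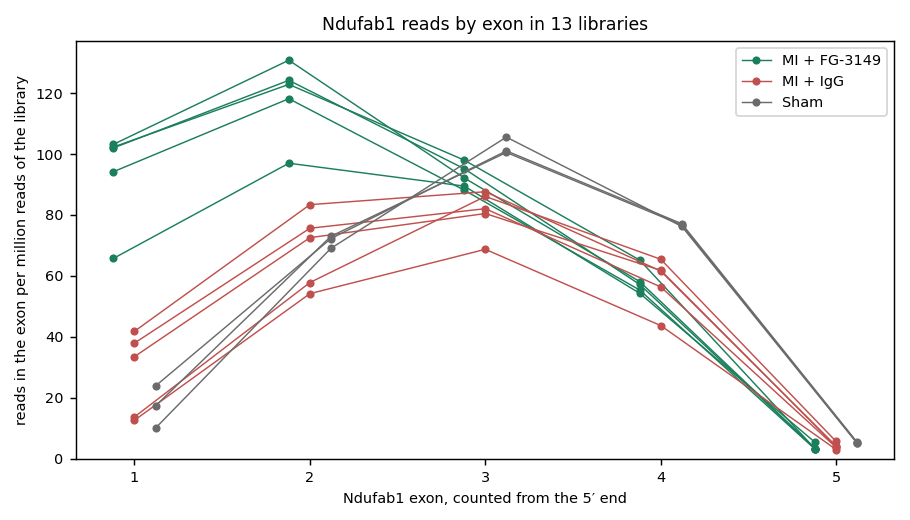
Reads of Ndufab1 scaled to the library total (y axis, CPM without TMM factors) in each of its 5 exons (x axis, from the 5′ end), 1 line per library for MI with FG-3149 (n = 5), MI with IgG (n = 5) and sham (n = 3). The FG-3149 lines lie above all others in exons 1 and 2 and below the sham lines in exons 3 and 4.

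Counting without the 5′-most exon, an alternative chosen after the data were seen, lowered the Ndufab1 difference to 0.42 ± 0.07 against IgG (SE, edgeR adjusted p = 0.0126) and 0.14 ± 0.09 against sham (SE, edgeR adjusted p = 0.245). That count still included exon 2, where all FG-3149 libraries lay above all others. The part of exon 2 in the remaining difference was not tested. With the 3′-most exon alone, which held 35.8 to 76.0 reads a library, the values were -0.07 ± 0.17 against IgG (SE, edgeR adjusted p = 0.926) and -0.37 ± 0.19 against sham (SE, edgeR adjusted p = 0.163). Both values on the 3′-most exon rest on few reads and did not pass, so no fall is shown, and the size of the Ndufab1 difference depended on the exons counted.

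The other genes called between the antibodies were smaller in size. Ndufb2, of the distal membrane arm, had 174.6, 170.7, 202.4, 179.3 and 171.3 CPM with FG-3149, against 129.6, 130.4, 164.1, 142.5 and 145.0 CPM with IgG and 156.6, 131.6 and 173.1 CPM in sham. Ndufa5 had 352.5, 331.1, 408.2, 368.6 and 346.7 CPM with FG-3149, against 310.3, 284.9, 327.7, 303.0 and 301.1 CPM with IgG and 364.0, 382.7 and 394.2 CPM in sham. Ndufs6, a zinc-binding subunit, had 305.9, 306.5, 354.7, 319.7 and 313.3 CPM with FG-3149, against 280.0, 270.7, 291.2, 277.7 and 276.3 CPM with IgG and 324.3, 323.7 and 328.8 CPM in sham. In all 3 genes the FG-3149 libraries lay above all IgG libraries, and replicate 3 was the highest of them. The log2 fold change was 0.34 ± 0.08 for Ndufb2, 0.24 ± 0.06 for Ndufa5 and 0.20 ± 0.05 for Ndufs6 (SE; edgeR adjusted p = 0.0443, 0.0388 and 0.0443). Over 29 alternatives the call was lost in 20 for Ndufb2, in 16 for Ndufa5 and in 20 for Ndufs6.

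Without the 5′-most exon the difference was 0.28 for Ndufb2 (edgeR adjusted p = 0.109), 0.26 for Ndufa5 (edgeR adjusted p = 0.0372) and 0.09 for Ndufs6 (edgeR adjusted p = 0.475). In Ndufa5 that exon held only 0.88% of the reads with FG-3149 and 0.28% with IgG. Leaving it out hardly changed the Ndufa5 count, so that call does not show independence of 5′ coverage. Without the 5′-most exon 2 of the 44 genes were called higher, where 0.468% of all genes were. With the 3′-most exon alone the difference was 0.04, 0.07 and 0.03 for Ndufb2, Ndufa5 and Ndufs6. On that exon 0 of the 44 were called by edgeR, where 0.541% of all genes were called higher. There 3 of the 44 were higher at an unadjusted p under 0.05, and the median over the 44 was 0.06. On the 3′-most exon Ndufa5 and Ndufs6 were called lower than sham with FG-3149 (-0.23, edgeR adjusted p = 0.00992, and -0.32, edgeR adjusted p = 0.00191), which they were not on all exons. The 5′-most exon held a median of 8.05% of a complex I gene's reads with FG-3149, 3.99% with IgG and 3.05% in sham, and in 33 of 44 genes all FG-3149 libraries exceeded all IgG libraries, as they did in 25.4% of all 12915 tested genes with more than 1 exon.

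**Figure D4:**
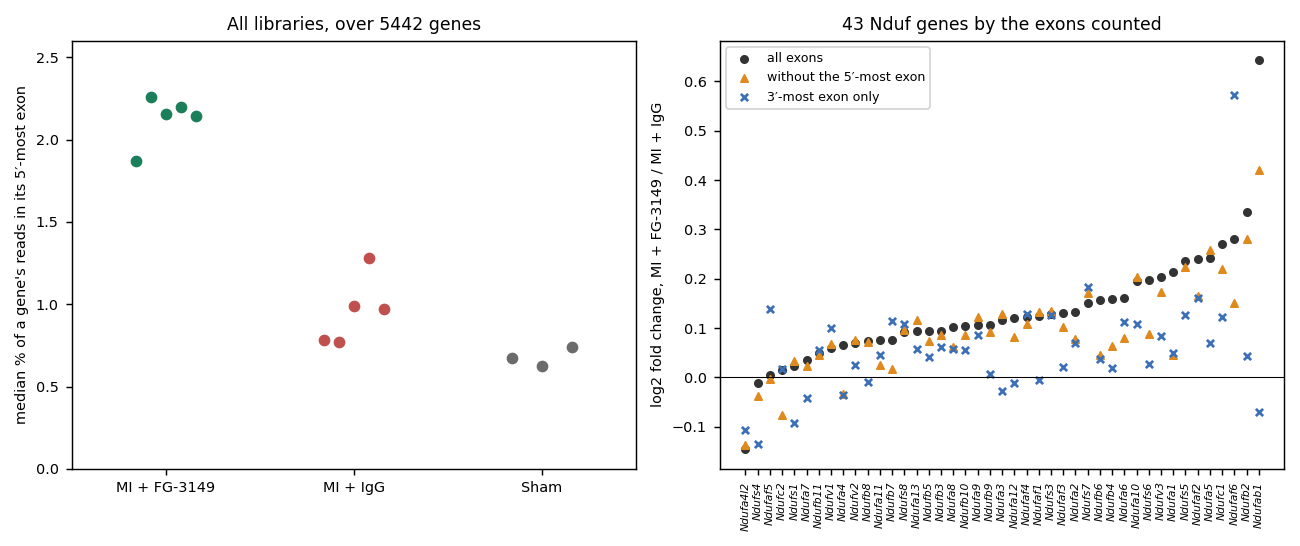
Left, the median share of a gene's reads in its 5′-most exon (y axis, percent) over 5442 genes in each library, by group; the 5 FG-3149 libraries, at 1.87% to 2.26%, lie above all IgG and sham libraries. Right, log2 fold change of FG-3149 against IgG (y axis) for 43 of the 44 Nduf genes from all exons, without the 5′-most exon and from the 3′-most exon only; Ndufab1 goes down to -0.07 on the last count.

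The lower level after infarction was also seen when 5′ exons were left out. These counts are not free of coverage, as the share of the 3′-most exon was also lower in all infarcted libraries than in sham. The part of that share in the counts was not tested. Without the 5′-most exon 19 genes were called lower than sham with FG-3149 (median -0.14), where 13.4% of all genes were, and 30 with IgG (median -0.26), where 16.1% were. The median of all genes was -0.001 in both comparisons. With the 3′-most exon alone 21 were lower with FG-3149 (median -0.20), where 11.5% of all genes were, and 26 with IgG (median -0.27), where 13.8% were, and the medians of all genes were 0.006 with FG-3149 and -0.001 with IgG. Ndufaf4 had -0.52 with FG-3149 and -0.65 with IgG on the 3′-most exon, close to its values on all exons. That exon makes up 3308 of its 3632 annotated bases and held most of its reads, so both counts rest largely on the same reads. Ndufa3 had -0.50 with FG-3149 and -0.47 with IgG on the 3′-most exon, against -0.32 and -0.43 on all exons. On that exon the Ndufa3 difference between the antibodies was -0.03 (edgeR adjusted p = 0.924). For the difference between the antibodies, complexes II to V had 4 of 39 subunits called higher with FG-3149 against IgG, at a median of 0.11, against 4 of 44 and a median of 0.11 for the complex I genes.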

How the data were processed

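Messenger RNA of 13 libraries was sequenced as single reads of 75 bases on the same flow cell after a stranded preparation, per the labels' protocols. Estimated counts of genes and exons, as deposited by the authors, are not normalized. RPKM values per RefSeq transcript were scaled by the authors to transcript length and library size. The genome build is mm10, per the submitters' processing notes, and aligner, counting tool, use of strand and handling of multiply matching reads are not given in the sources used here, so values of genes with processed pseudogenes are uncertain to that extent. Whole numbers, to a tolerance of 0.01, made up 79.4% of the gene values above 0.

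Gene counts were rounded, and 379 entries repeating a symbol were left out. Genes were filtered by filterByExpr (13434 kept), scaled by TMM and fitted over all 13 libraries by edgeR 4.0.16 (quasi-likelihood, robust, no covariate) in R 4.3.3, with Benjamini-Hochberg adjustment over all genes. The SE of a log2 fold change is its size divided by the square root of F. The code was tested on simulated data. Alternatives were run with DESeq2 1.42.0, limma 3.58.1 (voom, and log2(RPKM + 1) or log2(RPKM + 0.1)), other scalings, exon-restricted counts, removed trends with length or GC content, and libraries left out.

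The members, roles and lists were chosen with earlier results of these data known. Named were the core subunits (1 is not reported here), all Ndufaf factors, Ndufa4, Ndufa4l2, Ndufab1, in each accessory group the 2 genes with the lowest and the 2 with the highest IgG against sham value, genes called between the antibodies, and up to 4 genes per other list with the smallest p. Ndufa7, Ndufa12, Ndufb10, Ndufb11, Ndufv3, Ndufb8, Ndufa8 and Tfam were named after their values were seen.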

Additional observations from a re-analysis of the deposited data

Results flagged for a closer look

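In 5 of the 62 sets of 5 infarcted libraries examined, the highest or the lowest library stood apart from the other 4, and chance gives about 1 in 20. The sets were levels of single genes and, in each antibody group, the median share of reads in the 5′-most exon. They come from the same libraries and are not independent, and all 5 flagged sets were single genes. FG-3149 replicate 3 stood above the rest for Ndufa3 at 282.3 CPM (others 260.3 to 263.9), for Ndufb2 at 202.4 CPM (others 170.7 to 179.3) and for Ndufs6 at 354.7 CPM (others 305.9 to 319.7). IgG replicate 5 stood below the rest for Ndufa3 at 218.7 CPM (others 248.2 to 255.6). IgG replicate 3 stood above the rest for Ndufb7 at 299.2 CPM (others 263.4 to 272.2). FG-3149 replicate 3 was the highest FG-3149 library in 40 of the 44 genes, and without it Ndufb2 had a log2 fold change against IgG of 0.29 (edgeR adjusted p = 0.118) and Ndufs6 of 0.16 (edgeR adjusted p = 0.0904). That library also had the highest macrophage marker sum of the FG-3149 libraries, at 679.3 CPM (others 412.2 to 453.3), and the highest adipocyte marker sum, at 33.4 CPM (others 0 to 3.29). IgG replicate 5, with the low Ndufa3, had the highest adipocyte sum (39.2 CPM) and Myl4 level (30.7 CPM) of the IgG libraries. The part of these cells in the levels was not tested.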

How the results depend on the processing

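With IgG against sham, complex I genes called lower numbered 26, and 25 to 31 over all alternatives, with the median between -0.27 and -0.21. Leaving out single libraries gave 1833 to 2561 higher and 1474 to 2248 lower over all genes. With FG-3149 against sham, single libraries left out gave 1 to 2 higher and 9 to 18 lower complex I genes (9 without sham replicate 2 or 3 or FG-3149 replicate 2) and 1456 to 2225 higher and 1166 to 1896 lower over all genes. There, 2 complex I genes were higher when only the compared groups were fitted, 0 without the 5′-most exon or on the 3′-most exon alone, and 25 were lower with the length trend removed. With FG-3149 against IgG, single libraries left out gave 1 to 5 complex I genes higher and 62 to 175 higher and 6 to 96 lower over all genes. Complex I genes higher numbered 1 with library totals only, without robust dispersion, on log2(RPKM + 1) without a filter, and with the length or GC trend removed, 2 on log2(RPKM + 1), on log2(RPKM + 0.1), with only the compared groups and without the 5′-most exon, 0 on the 3′-most exon alone and 7 with DESeq2. All genes higher numbered 74 with library totals only, 221 with DESeq2, 56 on log2(RPKM + 1) without a filter, 76 with only the compared groups, 62 without the 5′-most exon, 67 on the 3′-most exon alone and 57 with the GC trend removed. All genes lower numbered 60 with DESeq2, 33 on log2(RPKM + 1), 7 with only the compared groups, 33 with the length trend removed and 12 without the 5′-most exon. On the 3′-most exon alone Ndufab1 turned to -0.373 against sham and -0.071 against IgG. The causes were not tested beyond the exon counts given above.

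Deviations of libraries with the same replicate number correlated at -0.042 to 0.178. Libraries with different numbers were not compared in this way, so these values do not settle whether the numbers pair the samples. With the replicate number as a block, complex I genes called higher were 2 for FG-3149 against sham and 7 for FG-3149 against IgG, with 46 of all genes lower, and 27 were lower for IgG against sham. Log2 errors for IgG against sham were 0.07 to 0.12 for the low Ndufaf factors and 0.05 to 0.06 for core subunits, and also 0.11 for Ndufab1, whose level is high. Depth limits the counts of single exons, such as the 3′-most exon of Ndufab1.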
